A study of Mus musculus with 2 samples.

Results

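The Mir30 family comprised 6 microRNA (miRNA) genes, Mir30a, Mir30b, Mir30c-1, Mir30c-2, Mir30d and Mir30e, out of 1973 miRNA genes counted in the neural tube of mouse embryos. Its members were selected by name, through their Ensembl identifiers, by a rule that used no counts. Earlier results of these data were known when the members were chosen. All 6 had a row in both libraries, and all 6 passed the filter of at least 10 counts summed over the libraries. The neural tube was dissected at embryonic day 11.5 from embryos of strain B6NCrl that carried no stated allele or treatment. The 2 libraries were biological replicates of this single group, each from embryos of both sexes pooled together, 109 embryos for replicate 1 and 88 for replicate 2. RNA under 30 nt was sequenced. No second tissue, stage or treatment was measured, so the questions open to these data are how abundant each member was, how the members compared with one another and how far the libraries differed.

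A miRNA is cut from an RNA hairpin and guides Argonaute proteins to mRNAs, whose output falls. Targets are recognised chiefly through the seed, bases 2 to 8 of the mature miRNA, so genes with the same seed form a family with overlapping targets. Each hairpin can give a mature miRNA from its 5′ arm (5p) and from its 3′ arm (3p). The miR-30 family is expressed in many tissues and is best known for its work in epithelial identity, in kidney podocytes and in autophagy, where miR-30a-5p acts on the mRNA of Beclin 1. The 6 genes lie as 3 pairs, Mir30e with Mir30c-1, Mir30a with Mir30c-2, and Mir30d with Mir30b.

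The mature sequences below are shown because the seed defines the family and because the bases outside it decide which reads can be told apart between genes. They come from RefSeq on GRCm38.p6, where 4 of the 6 members matched, namely Mir30a, Mir30c-1, Mir30c-2 and Mir30e, and Mir30b and Mir30d did not. Capitals mark the seed. Mir384 on chromosome X is shown as well, since a search of 1738 mature entries for the seed of miR-30a-5p returned 5 genes, these 4 and Mir384. Its miRNA miR-384-5p is known from synaptic plasticity.
miR-30a-5p: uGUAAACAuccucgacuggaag
miR-30e-5p: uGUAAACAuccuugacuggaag
miR-30c-5p: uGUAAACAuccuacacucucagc
miR-384-5p: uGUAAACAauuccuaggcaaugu

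Positions are counted from 1 at the 5′ end. The 5p miRNAs of Mir30a and Mir30e were identical over 22 bases but for the substitution C13U. miR-30c-5p held the same first 12 bases as both and differed from miR-30a-5p at 5 of the 22 aligned bases. miR-384-5p matched miR-30a-5p without a break over the first 8 bases and differed from it at 10 of the 22 aligned bases.

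The 3p arms of the 4 members with sequences fell into 2 seed groups, shown here because they set Mir30a and Mir30e apart from the Mir30c genes. In these lines capitals mark the bases at which the members of each pair differ.
miR-30a-3p: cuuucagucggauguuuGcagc
miR-30e-3p: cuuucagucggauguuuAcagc
miR-30c-1-3p: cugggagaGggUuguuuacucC
miR-30c-2-3p: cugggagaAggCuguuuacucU
miR-30a-3p and miR-30e-3p differed by G18A alone and shared a seed with each other and with no other mature entry searched. The entries searched did not include Mir30b and Mir30d, so the 3p seeds of those genes are not known here. miR-30c-1-3p and miR-30c-2-3p differed by G9A, U12C and C22U and had another seed, which miR-6958-5p also carried.

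The hairpins of the Mir30c genes are printed whole, with both mature arms in capitals, because their 5p arm is the same sequence in both genes.
Mir30c-1: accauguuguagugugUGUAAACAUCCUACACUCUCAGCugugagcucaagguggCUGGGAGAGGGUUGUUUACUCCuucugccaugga
Mir30c-2: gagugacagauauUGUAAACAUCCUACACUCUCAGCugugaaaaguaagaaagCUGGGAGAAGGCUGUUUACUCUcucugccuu
The 2 hairpins had a run of 28 bases in common that covers the 23 bases of miR-30c-5p, so a read of this miRNA matched at least 2 places in the genome. The deposited tables list reads mapped to several places in a row of their own, outside the genes, which held 25.2% of the reads of replicate 1 and 27.3% of those of replicate 2. The part of miR-30c-5p in that row was not tested. The longest run that Mir30a and Mir30e shared with any other hairpin of the table was 18 bases, with each other, and neither had a mature sequence that lay whole in another hairpin. The counts given here are per hairpin gene, so reads of the 5p and 3p arms were not told apart.

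In coordinates of GRCm38 (mm10) from GENCODE M21, Mir30e (chromosome 4, 120772606 to 120772697, minus strand) and Mir30c-1 (chromosome 4, 120769534 to 120769622, minus strand) lie in introns of Nfyc. Nfyc encodes a subunit of the transcription factor NF-Y, and the hairpins stand 2983 bases apart. Mir30a (chromosome 1, 23272269 to 23272339, plus strand) overlapped no annotated gene, and Mir30c-2 (chromosome 1, 23291701 to 23291784, plus strand) overlapped an exon of the noncoding Gm27028, with 19361 bases between them. Mir30d (chromosome 15, 68341208 to 68341289, minus strand) overlapped exons of Gm20732 and Gm37296, and Mir30b (chromosome 15, 68337415 to 68337510, minus strand) overlapped an exon of Gm26621, with 3697 bases between the hairpins. All of these overlapping Gm genes are annotated without a protein product.

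Levels are given as counts on the gene's own strand per 1000000 such counts over all miRNA genes (CPM). These totals were 3708662 in replicate 1 and 4055883 in replicate 2, so 3 counts, the limit that a count of 0 allows, correspond to 0.809 and 0.740 CPM. Intervals and limits cover counting error only, because reads copied by PCR are not independent. Of the neural marker genes, 12 of 13 listed had a row and took 0.904% and 0.786% of counts, led by the progenitor gene Mir92b. The copies of Mir124a, a gene known from neurons, were at 1.23 to 11.9 CPM. These copies are known to give the same mature miRNA, as are Mir133a-1 and Mir133a-2 of muscle. A read of it matches several places, so the level of the miRNA cannot be read from the counts per gene. Whether other listed genes with numbered copies, such as Mir9, Mir128, Mir218 and Mir199a, have the same limit was not checked. The shares of the lists are thus shares of counts per gene and not of cell types. Endothelial Mir126a took 2.49% and 2.23%, mesenchyme and cartilage genes 2.44% and 1.80%, and muscle genes 0.148% and 0.0949% with Mir133a-1 and Mir133a-2 at 0. Erythroid genes took 0.0520% and 0.0368%, leukocyte genes 0.0479% and 0.0356%, and the liver gene Mir122 had 29 and 32 counts. Which of these cells held the Mir30 counts was not measured, and in tissue RNA fewer cells of a type and less RNA per cell cannot be told apart.

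By counts per gene, the Mir30 family was an abundant family carried by 3 of its genes. Any reads of miR-30c-5p listed as mapped to several places are missing from these counts, and their number was not tested. Its 6 members held 112044 counts in replicate 1, or 3.02% of all own-strand counts (95% Wilson interval 3.004 to 3.039), and 109580 in replicate 2, or 2.70% (2.69 to 2.72). The mean share was 2.86% ± 0.226 (SD, n = 2). Mir30e, Mir30a and Mir30d together made up 99.2% of the family in replicate 1 and 99.1% in replicate 2. Mir30b, Mir30c-1 and Mir30c-2 supplied the remaining 0.786% and 0.851%.

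Mir30e led the family with 71769 counts in replicate 1 and 68633 in replicate 2, or 19352 and 16922 CPM. It ranked 10 of all genes in replicate 1 and 11 in replicate 2, and its mean was 18137 ± 1718 CPM (SD, n = 2). This gene alone formed 64.1% and 62.6% of the family's counts. The 3 genes outside the family nearest to it in level were Mir20a, Mir322 and Mir99b, by the difference in log2(CPM + 1) summed over the 2 libraries (0.09, 0.19 and 0.55). Mir20a of the miR-17 cluster had 18421 and 17156 CPM, and Mir322, a gene of an X-linked cluster, had 18410 and 15642 CPM. With 2 libraries this is a likeness of level and nothing more.

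Mir30a was next, with 26084 and 27232 counts, or 7033 and 6714 CPM in replicates 1 and 2. Its mean was 6874 ± 226 CPM (SD, n = 2). Mir30d followed with 13310 and 12782 counts, or 3589 and 3151 CPM, and a mean of 3370.2 ± 309 CPM (SD, n = 2). These genes stood at places 31 and 52 of all genes by mean level. In replicates 1 and 2 respectively, Mir30e exceeded Mir30a by 2.75-fold and 2.52-fold, and Mir30a exceeded Mir30d by 1.96-fold and 2.13-fold.

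The other 3 members were far lower. Mir30b had 425 counts in replicate 1 and 569 in replicate 2, or 115 and 140.3 CPM, with a mean of 127 ± 18.2 CPM (SD, n = 2). By own-strand totals it was the one member with the higher level in replicate 2. It lay 31.3-fold below Mir30d in replicate 1 and 22.5-fold below it in replicate 2. Mir30c-1 had 289 and 244 counts, or 77.9 and 60.2 CPM, with a mean of 69.0 ± 12.6 CPM (SD, n = 2). Mir30c-2 was the lowest with 167 and 120 counts, or 45.0 and 29.6 CPM, and a mean of 37.3 ± 10.9 CPM (SD, n = 2). Mir30e was 430-fold as abundant in replicate 1 and 572-fold in the other library. A read of the 5p arm that both Mir30c genes share, printed above, matched both. The deposited counts hold a separate row, outside the genes, for reads mapped to several places. Reads of this arm listed there are missing from the counts of both Mir30c genes. How many were so listed was not tested, and the labels and file headers do not state the rule used.

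The order Mir30e, Mir30a, Mir30d, Mir30b, Mir30c-1, Mir30c-2 was the same in both libraries, and the ranges of neighbours in this order did not overlap. The step from Mir30b to Mir30c-1 was 1.47-fold in replicate 1 and 2.33-fold in replicate 2, and that from Mir30c-1 to Mir30c-2 was 1.73-fold and 2.03-fold. With 2 libraries per gene the smallest p that an exact two-sided unpaired permutation test allows is 0.333. No step can pass a threshold of 0.05 by it, and it leaves aside that the genes share libraries. Mir384, the gene outside the family with the same seed, had 664 and 580 counts, or 179 and 143 CPM. It lay 20.05-fold and 22.04-fold below Mir30d. It stood above Mir30b by 1.56-fold in replicate 1, but in replicate 2 the 2 genes differed by 1.02-fold and their 95% Poisson intervals overlapped (132 to 155 CPM for Mir384 and 129.0 to 152.3 CPM for Mir30b). Adding Mir384 to the family raised the share of counts to 3.04% in replicate 1 and 2.72% in replicate 2.

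**Figure D1:**
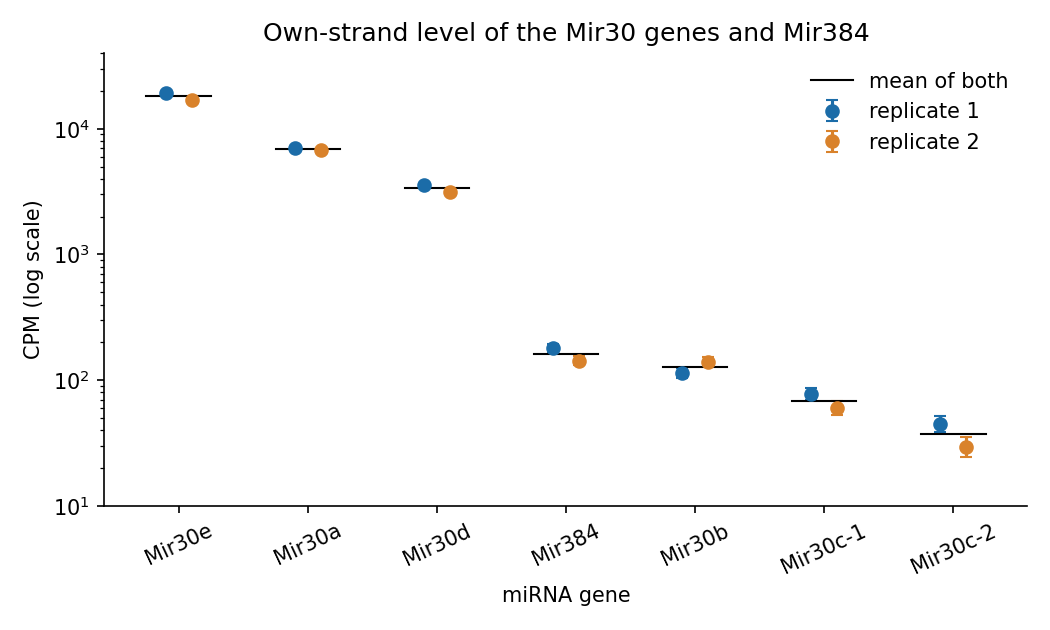
Level of each Mir30 gene and of Mir384, which has the same seed, in CPM on a log axis. Points are single libraries with 95% Poisson intervals and black lines are means of 2 libraries; Mir30e, Mir30a and Mir30d lie at 3151 CPM or more and the others at 179 CPM or less.

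No member had a read on the strand opposite its hairpin in either library. For Mir30e this covers its overlap with Mir30f, which GENCODE M21 annotates on the opposite strand and for which no row was used here. By the one-sided limit given above, the 0 counts allow up to 0.809 CPM in replicate 1 and 0.740 CPM in replicate 2. The strand of Mir30e had 19352 and 16922 CPM.

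By counts per gene, each pair of neighbours held 1 abundant and 1 scarce gene. Any reads of miR-30c-5p listed as mapped to several places are missing from the counts of Mir30c-1 and Mir30c-2. Mir30e and Mir30a had no mature sequence that lay whole in another hairpin. The ratios of these pairs are thus of counts per gene and not of miRNA levels. The chromosome 4 pair in Nfyc supplied 64.3% of the family's counts in replicate 1 and 62.9% in replicate 2, the chromosome 1 pair 23.4% and 24.96%, and the chromosome 15 pair 12.3% and 12.2%. Within a pair the ratio of counts does not depend on how the libraries are scaled. Mir30e exceeded Mir30c-1 by 248-fold in replicate 1 (95% exact interval 221 to 280) and 281-fold in replicate 2 (248 to 320), and the intervals overlapped. Mir30a exceeded Mir30c-2 by 156-fold (134 to 183) and 227-fold (190 to 274), and Mir30d exceeded Mir30b by 31.3-fold (28.4 to 34.6) and 22.5-fold (20.7 to 24.5). In these last 2 pairs the intervals of the libraries did not overlap, and the pairs moved in opposite directions. The ratio of Mir30a to Mir30c-2 was 1.45 times as large in replicate 2 (95% interval 1.15 to 1.84), and the ratio of Mir30d to Mir30b was 1.39 times as large in replicate 1 (1.23 to 1.58).

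For scale, 119 other pairs of adjacent miRNA genes stood within 20 kb on the same strand with at least 10 summed counts each, a distance chosen after the gaps within the family were known. The higher gene of these pairs exceeded the lower by a median of 6.41-fold (quartiles 2.85 and 32.2). Of them, 34, or 28.6%, differed by more than Mir30d and Mir30b, and 8 by more than Mir30e and Mir30c-1. Pairs whose lower gene had a mature sequence that also lay whole in another hairpin, as both Mir30c genes do, had a median of 21.6-fold over 22 pairs outside the family. Pairs whose lower gene had none had a median of 5.30-fold over 84 pairs. These are descriptions over genes that share clusters, and the part of reads mapped to several places in them was not tested.

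**Figure D2:**
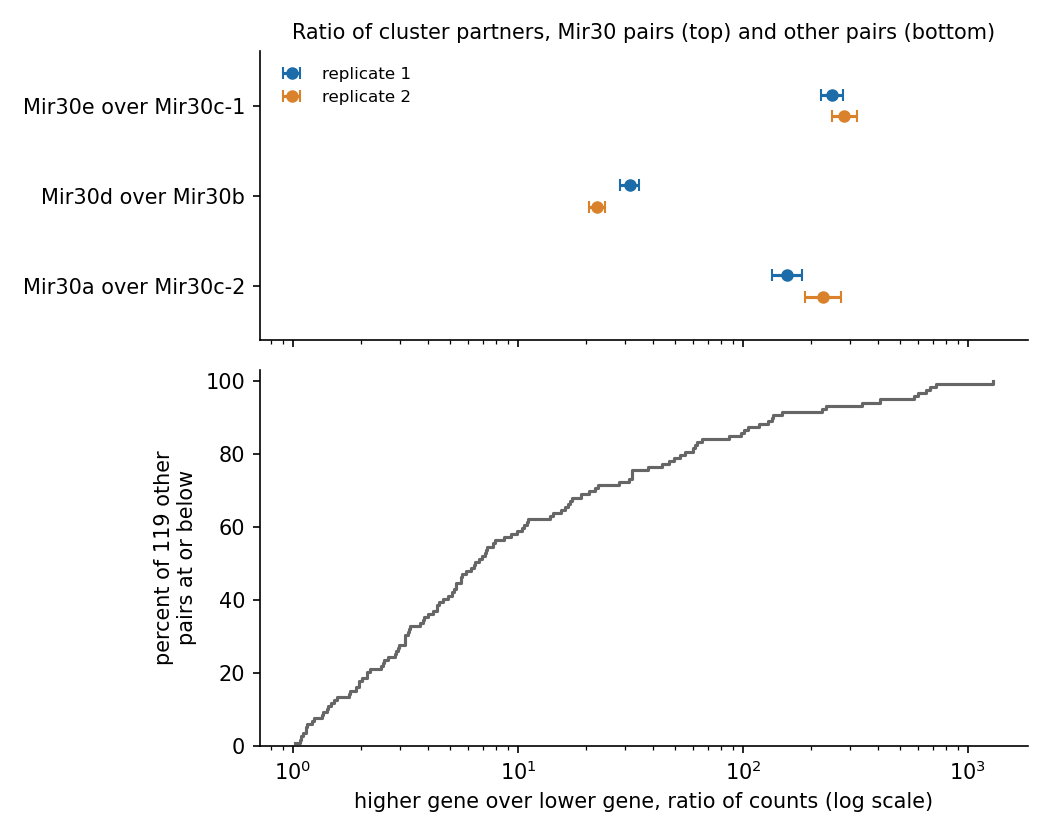
Upper panel: ratio of own-strand counts within each Mir30 pair, per library, with 95% exact intervals. The counts of Mir30c-1 and Mir30c-2 lack any reads of miR-30c-5p listed as mapped to several places. Lower panel: cumulative percentage of 119 other neighbouring pairs by their ratio (geometric mean of 2 libraries), both on 1 log axis; the Mir30 pairs lie between 22.5 and 281, above the median of 6.41 for the others.

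Small families of similar make-up give a measure of the share. The Mir130 and Mir301 family of 4 genes took 3.61% of counts in replicate 1 and 3.71% in replicate 2, which was 1.19-fold and 1.37-fold more than the Mir30 family. The Mir26 family of 3 genes, which lie within genes of the Ctdsp phosphatases, took 1.07% and 1.11%, so the Mir30 family exceeded it by 2.81-fold and 2.43-fold. The Mir148 and Mir152 family of 3 genes took 0.0688% and 0.0626%, and the Mir30 family exceeded it by 43.9-fold and 43.2-fold. The ranges did not overlap in any of these comparisons. Each gave the smallest p that an exact two-sided unpaired permutation test allows, 0.333. That test leaves aside that the families were measured in the same 2 libraries, so it cannot decide the comparison. The leading gene formed 63.3% of the counts of its family for Mir30e, 74.1% for Mir130a and 99.6% for Mir26b, as means of 2 libraries. The low members of the Mir26 family were Mir26a-1 with 34 and 35 counts and Mir26a-2 with 110 and 133. Both had a mature sequence that lay whole in another hairpin, as the Mir30c genes did. No member of the Mir130 and Mir301 family or of the Mir148 and Mir152 family had one. Any reads of such sequences listed as mapped to several places are missing from the shares, folds and leading-gene percentages given here. Their number was not tested.

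**Figure D3:**
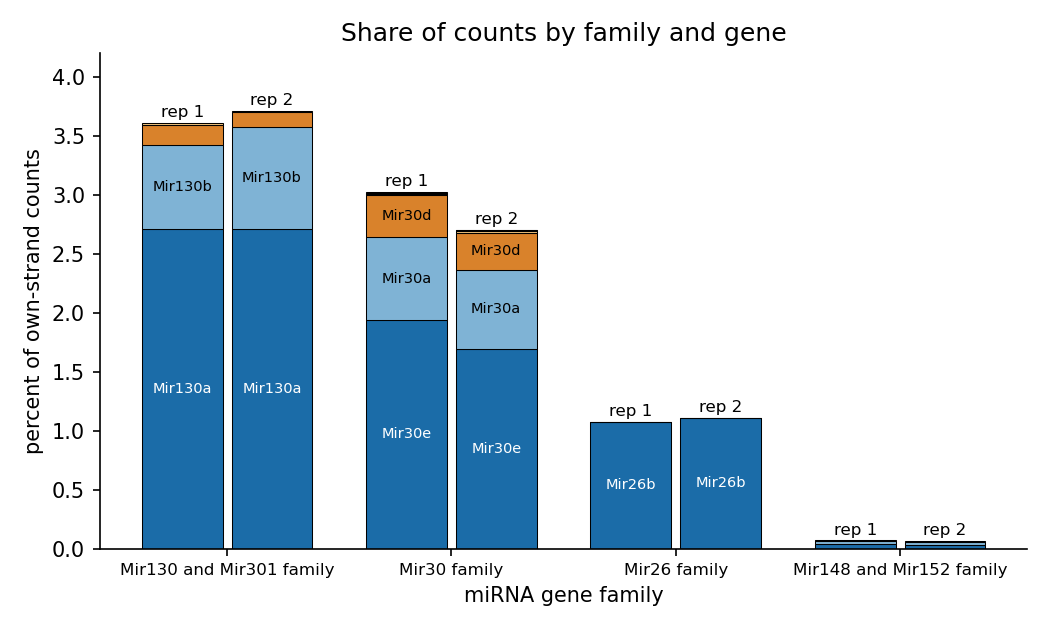
Share of own-strand counts, in percent, taken by 4 miRNA families in each library, with bars split by gene and starting at 0. The Mir30 bars reach 3.02% and 2.70% and consist almost wholly of Mir30e, Mir30a and Mir30d.

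Counts of each gene were set side by side in a two-sided exact binomial test that took the own-strand totals as given, and p-values were adjusted by Benjamini and Hochberg's method over all 444 genes that passed the filter on low counts. The test sets these 2 libraries against counting noise and says nothing of conditions. All 6 members passed it, against 53.2% of all genes tested. Of them, 5 were higher in replicate 1, where 45.3% of all genes were, and Mir30b was higher in replicate 2, where 7.88% were. On the CPM scale, Mir30e stood 1.14-fold above its level of replicate 2 (exact binomial adjusted p = 3.32e-138), Mir30d 1.14-fold (exact binomial adjusted p = 5.25e-25) and Mir30a 1.05-fold (exact binomial adjusted p = 2.87e-07). In the same direction, Mir30c-2 differed by 1.52-fold (exact binomial adjusted p = 0.00114) and Mir30c-1 1.295-fold (exact binomial adjusted p = 0.00691). Mir30b, higher in replicate 2, differed by 1.22-fold (exact binomial adjusted p = 0.00378). Mir384 differed by 1.25-fold, with the higher level in replicate 1 (exact binomial adjusted p = 0.000204).

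The directions of the 3 abundant members depended on the scaling. By own-strand totals the median of all genes tested lay toward replicate 1 by 0.27 on the log2 scale, and the median of the 6 members by 0.19. With edgeR's TMM scaling, a trimmed mean of gene-wise ratios, which moved all log2 ratios by -0.29, Mir30e, Mir30a and Mir30d were higher in replicate 2, with log2 ratios of replicate 1 over replicate 2 of -0.09, -0.22 and -0.10. Mir30c-1 and Mir30c-2 no longer passed the test, with exact binomial adjusted p values of 0.663 and 0.144. Among all genes, calls were 201 higher in replicate 1 and 35 in replicate 2 by totals, against 81 and 96 with TMM and 87 and 95 with DESeq2's size factors. Relative to the median of all genes, a measure that these scalings leave unchanged, the log2 ratio was -0.07 for Mir30e, -0.08 for Mir30d, -0.20 for Mir30a, -0.56 for Mir30b, 0.10 for Mir30c-1 and 0.34 for Mir30c-2. Mir30b toward replicate 2 was the one call that held in the same direction under all 4 scalings. Its percentile among the log2 ratios of all genes tested was 9.46, and that of Mir30c-2, at the other end of the family, was 77.3.

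**Figure D4:**
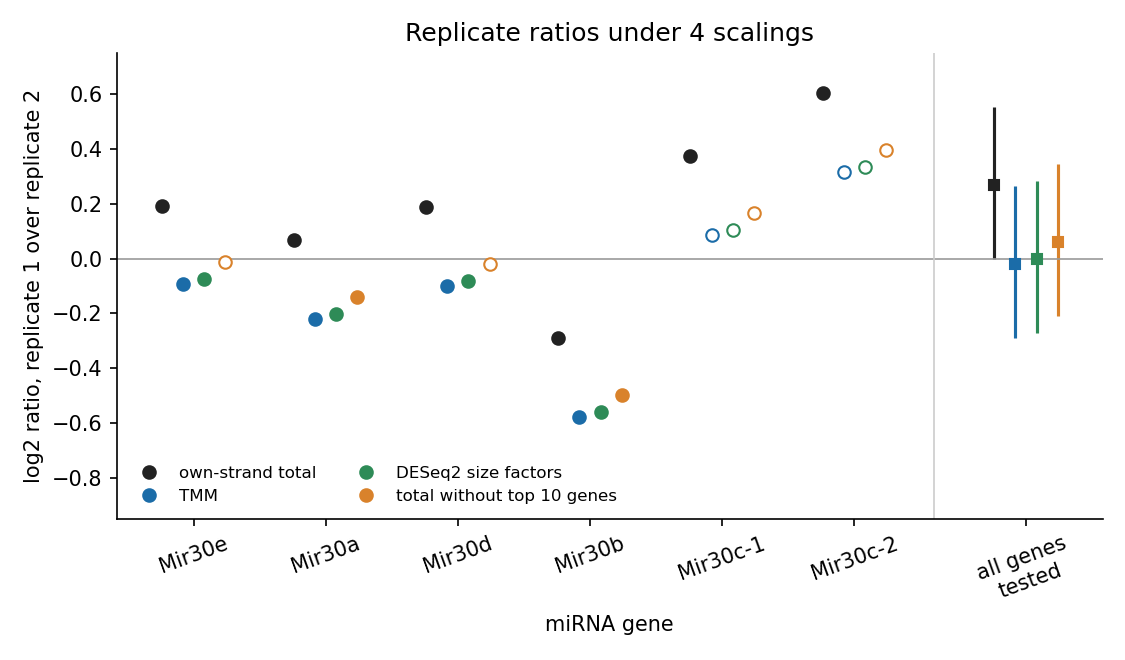
Log2 ratio of replicate 1 over replicate 2 for each member under 4 scalings, with filled circles where the exact binomial adjusted p was below 0.05. Squares and bars give the median and quartiles of the 444 genes tested; Mir30e, Mir30a and Mir30d lie above 0 by own-strand totals only, and Mir30b lies below 0 under each scaling.

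The shares of marker genes differed between the libraries too. By own-strand totals, the family share was 1.12-fold higher in replicate 1, the share of endothelial Mir126a 1.12-fold, that of the neural markers 1.15-fold, of the leukocyte genes 1.35-fold, of the mesenchyme and cartilage genes 1.36-fold, of the erythroid genes 1.41-fold and of the muscle genes 1.56-fold. The median gene tested was 1.20-fold higher there, and liver Mir122 was at 0.991 of its level in replicate 2. With TMM, a scaling applied to these sums after their values were seen, the ratio of replicate 1 to replicate 2 was 0.916 for the family, 0.916 for Mir126a and 0.942 for the neural markers, so these directions turned. It was 1.10 for the leukocyte genes, 1.11 for the mesenchyme and cartilage genes, 1.16 for the erythroid genes, 1.28 for the muscle genes and 0.812 for Mir122. The muscle value was carried by Mir206 of skeletal muscle, which held 91.7% and 80.1% of that list's counts. Mir92b held 58.1% and 59.9% of the counts of the neural list, so the neural value describes that sum and not each gene in it. By totals, cardiac Mir208a and Mir208b, named like Mir206 after their values were seen, went the other way, higher in replicate 2 by 2.06-fold (exact binomial adjusted p = 0.0337) and 2.27-fold (exact binomial adjusted p = 2.04e-26). Mir499 of the same muscle list, also named after its values were seen, stood with Mir206. It had 18.9 CPM in replicate 1 and 10.6 CPM in replicate 2 (adjusted p = 0.00724 by the exact binomial test). Of the 5 muscle genes tested, 2 passed toward replicate 1 and 2 toward replicate 2. The part of these muscle genes in the differences of the Mir30 genes was not tested. Replicate 1 also held 24.5% unmapped reads against 15.2% in replicate 2, and its part was likewise not tested.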

How the data were processed

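The authors deposited raw read counts per miRNA gene for each library, on mm10 with annotation GENCODE M4, per the file headers. The aligner and its settings, not given in the sources used here, decide which reads count as mapped to several places. The 3 unnamed count columns were read as either strand, own strand and opposite strand. The first equalled the sum of the others in all 1973 rows, which does not tell those others apart. Own strand was inferred from the layout and the values. The column so read held 3708662 and 4055883 counts in replicates 1 and 2, and the opposite one 78467 and 68621. Own-strand counts were used. Rows for unmapped, multiply mapped and no-gene reads were left out of totals; own-strand gene counts formed 43.5% of 8530505 reads in replicate 1 and 53.0% of 7655421 in replicate 2. Identifiers were matched to GENCODE M21 (1894 of 1973), and sequences came from RefSeq on GRCm38.p6, matched by symbol.

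Samples form 1 group, so edgeR's quasi-likelihood test had no contrast to fit. Genes were compared between libraries by a two-sided exact binomial test (threshold 0.05 after Benjamini-Hochberg adjustment, at least 10 summed counts, pseudocount of 0.5 counts in log2 ratios), which was also tried on simulated counts. TMM factors (edgeR 4.0.16) and size factors (DESeq2 1.42.0) were computed in R 4.3.3 over the same 444 genes as alternatives. Other alternatives were the denominator, either-strand counts, filters of 1 and 100 counts, a pseudocount of 1 and each library alone. The rest used Python 3.11.15, numpy 2.4.6, pandas 2.3.3, scipy 1.17.1 and matplotlib 3.10.9. Named genes were the members, genes with the same seed, 3 comparison families, and the 3 genes nearest in level to the leading member. The neighbouring pairs were added after values were seen. Members and lists were chosen with earlier results of these data known. Columns of values left without a sample numbered 0.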

Additional observations from a re-analysis of the deposited data

How the results depend on the processing

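The family share of 2.86% became 1.37% of all reads in the file and 6.68% of a total without the 10 most abundant genes, a total that leaves out Mir30e itself; with single libraries it ranged from 2.70% to 3.02%. The log2 ratio of Mir30e (0.19 by totals) turned to -0.0942 with TMM, -0.0750 with DESeq2's size factors and -0.0138 with the total without the 10 most abundant genes. That of Mir30a (0.07) turned to -0.22, -0.20 and -0.14, and that of Mir30d (0.19) to -0.100, -0.0811 and -0.0198. Members past the test were 5 higher in replicate 1 and 1 in replicate 2 by totals. In the exact binomial test they were 0 and 4 with TMM, 0 and 4 with size factors, and 0 and 2 with the total without the 10 most abundant genes; members higher in replicate 1 at an unadjusted p under 0.05 were 0, 0 and 1. All genes past the test, 201 and 35 by totals, were 81 and 96, 87 and 95, and 110 and 74. Either-strand counts, other filters and a pseudocount of 1 kept each member's direction and call. The cause of the change was the shift of the scaling, which moves all log2 ratios alike. TMM, chosen for sums after seeing the data, turned the log2 ratio of the family's summed counts from 0.16 to -0.13. It turned that of endothelial Mir126a from 0.16 to -0.126 and that of the summed neural markers from 0.20 to -0.0861. Either-strand counts leave the partner ratios as they are by construction, since no member had opposite-strand reads, and a single library gives back its own ratio. Replicate ratios could not be computed from a single library. No paired analysis was possible because the series holds 1 group. Depth limits Mir30c-2 most, at 120 to 167 counts.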

Other observations

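In the RefSeq table, 50 miRNA genes with a row here had some but not all of their mature sequences lying whole in another hairpin, Mir30c-1 and Mir30c-2 among them. Of these, 39 had at least 10 summed counts, and their median level was 72.2 CPM. Another 35 genes had all mature sequences in another hairpin, of which 11 reached 10 counts, with a median of 32.8 CPM. The 831 genes with none, Mir30a, Mir30e and Mir384 among them, had 345 such genes and a median of 87.7 CPM. The levels of Mir30c-1 (69.0 CPM) and Mir30c-2 (37.3 CPM) thus lay below the median of the first group. The hairpins also differed in composition: G and C made up 52.1% of Mir30a, 51.1% of Mir30e, 49.4% of Mir30c-1, 42.9% of Mir30c-2 and 33.0% of Mir384.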
